A study of Homo sapiens with 12 samples.

Results

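Solute carriers are membrane proteins that move nutrients, ions, vitamins, drugs and metabolites across the cell surface or the membranes of organelles, mostly by coupling the movement of a substrate to that of an ion or of a second substrate. The members described here are the genes whose symbol is that of a numbered solute carrier family (SLC followed by a number and the letter A) or of an organic anion transporting polypeptide (SLCO), and which had a probe set above 4 on the log2 scale in 3 or more of the 12 arrays. The families SLC2, SLC3, SLC7, SLC30, SLC39 and SLC40 were not included. The symbol rule matched 304 genes on the array, of which 148 reached the floor and 156 did not, out of 10626 genes tested in all. These levels chose the members and are not a finding. Carriers that the gene table used here does not name were not analysed here.

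In the kidney, carriers of the proximal tubule take back phosphate, glucose, amino acids, bicarbonate and small organic acids from the filtrate and secrete organic anions and cations into it. Sodium that the basolateral sodium pump keeps low inside the cell drives many of them, and scaffold proteins with PDZ domains hold several at the brush border. The SLC25 family forms the gate of the inner mitochondrial membrane, the SLC35 family supplies nucleotide sugars to the Golgi, and other families serve the lysosome.

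The cells were HK-2, a single immortalised line of human proximal tubular epithelium grown in serum-free medium with EGF, hydrocortisone, insulin, transferrin and selenite, so all replicates are cultures of 1 line. Near confluence they received a compound called Di or its vehicle, and total RNA was taken 12 h or 48 h later. The 4 groups were control at 12 h, Di at 12 h, control at 48 h and Di at 48 h, each with 3 biological replicates. The labels come from a study of kidney toxicants, and the identity and the dose of Di are not given in the sources used here. Every value below is a log2 expression value of 1 probe set per gene, deposited by the authors after GCRMA, an algorithm that corrects background, normalises and summarises probes. Errors beside a log2 change are standard errors of a limma fit to all 12 arrays, and a change was called at an adjusted p under 0.05 (Benjamini-Hochberg over 10626 genes). Probe sets differ in sensitivity, so levels were compared between groups and never between genes.

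The arrays carried the epithelial label, with all 7 epithelial markers above the floor. Of the 8 proximal tubule markers named on the array, PAX8 alone was above it, while CUBN, LRP2, AQP1, GGT1, ANPEP, MME and SLC34A1 were not. No leukocyte marker (of 3) and no endothelial marker (of 4) was above the floor. Of 5 fibroblast markers DCN, LUM and ACTA2 were above the floor and PDGFRA and PDGFRB were not, and of 3 markers of other tubule segments AQP2 was. Over the members, the root mean square deviation of an array from its group was greatest for replicate 2 of Di at 12 h, at 0.245, and 0.100 to 0.195 for the other arrays. Of the 148 members, 129 were above the floor on all 12 arrays and 64 had more than 1 probe set. SLC22A7, SLC45A3 and SLC6A9 lay just inside the threshold, with third-highest values of 4.03, 4.07 and 4.13, and SLC37A2 (3.84) and SLC12A1 (3.76) lay just outside. SLC15A1, SLC25A35, SLC60A1, SLC6A9 and SLC22A7 would not have passed without 1 of the groups. Among the members 141 encode carriers and 7 do not, the latter being an adaptor gene (SLC4A1AP), a pseudogene (SLC71A3P) and 5 noncoding RNAs named after a neighbouring carrier.

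The comparison of Di with control at 48 h asked which carriers differed after prolonged exposure. Of the 148 members, 40 were higher and 46 lower (58.1%), where 50.9% of all genes tested were called (22.9% higher, 28% lower). The share of members was thus close to that of the array as a whole. The median log2 change was -0.006 over the members and -0.019 over all genes. Among called members of the 148, 5 rose and 21 fell by at least 2-fold. Over all 10626 genes, 461 called genes rose and 861 fell by as much. Values did not overlap between the groups for 45 members that were higher and 53 that were lower, and over all genes the share without overlap was 61.6%, with 28.6% higher. Without the 5 members that depended on 1 group, 39 of 143 were higher and 45 lower. Because RNA was taken from whole cultures, fewer cells of a kind and less RNA per cell cannot be told apart in any of these values.

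**Figure D1:**
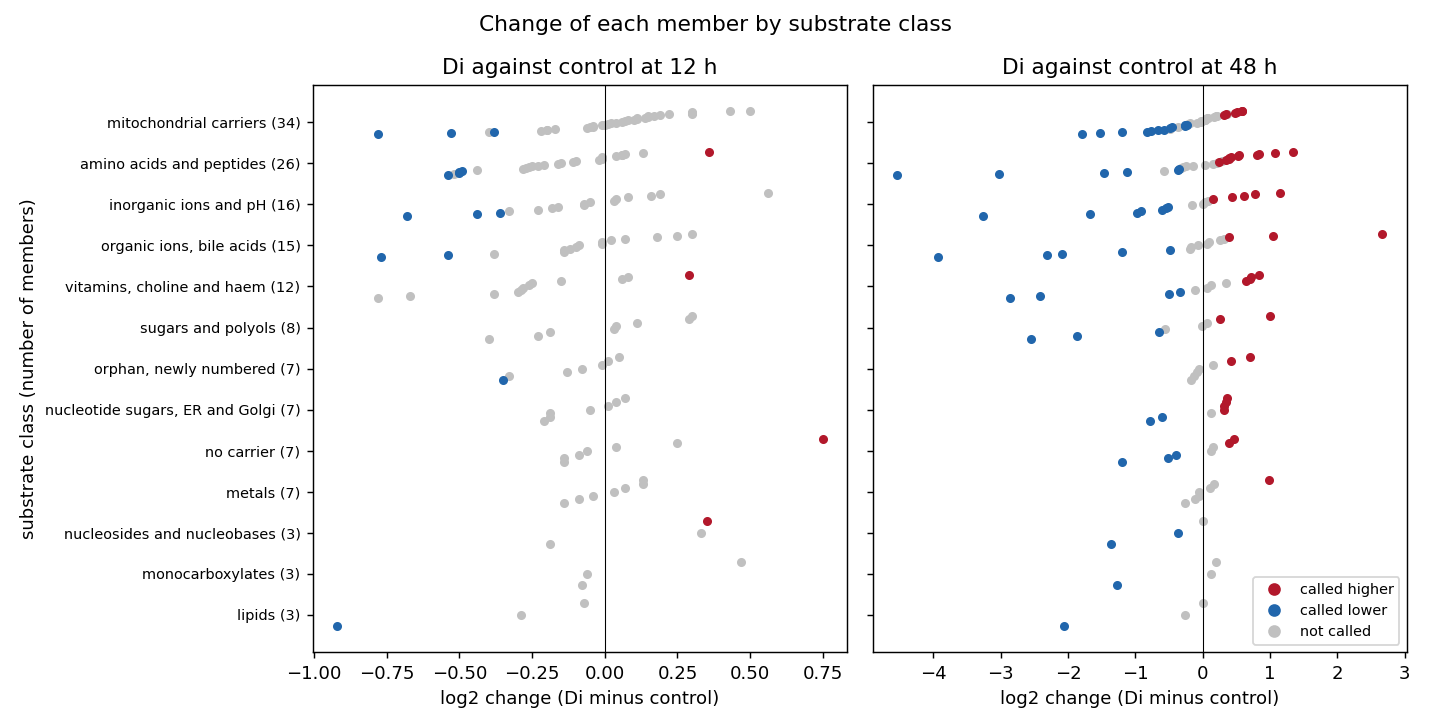
Log2 change of each member, Di minus control, at 12 h (left) and 48 h (right), with members grouped by substrate class (vertical axis, number of members in brackets) and each point 1 gene. Red points were called higher, blue points lower and grey points were not called by limma; the horizontal scales differ, with changes between -0.92 and 0.75 at 12 h and between -4.54 and 2.67 at 48 h.

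The classes held called members in both directions at 48 h, with the exception of the small classes of metals, monocarboxylates, nucleosides, lipids and the newly numbered families (3 to 7 members each). Carriers of amino acids and peptides had 11 higher and 6 lower of 26, and carriers of inorganic ions 5 and 7 of 16. Carriers of organic ions, bile acids and steroids had 3 higher and 5 lower of 15, and the mitochondrial SLC25 family 6 and 12 of 34. Vitamin, choline and haem carriers had 4 in each direction of 12. Over all genes 50.9% were called, 22.9% higher and 28% lower. Differences between classes were not tested.

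The called members with the largest decreases were SLC6A13, SLC17A3, SLC4A4, SLC38A11 and SLC44A3, and the largest increase was that of SLCO5A1. Promoter sequences of members that moved together were read from RefSeq (GRCh38.p14), which held 181 promoters for 124 of the members, each from 250 bases before to 50 after a transcript start. SLC17A3 and SLC17A1 lie next to each other on chromosome 6 and SLC6A12 and SLC6A13 on chromosome 12, and all 4 genes fell at 48 h. The pair SLC1A4 and SLC1A5, neutral amino acid exchangers that rose, were the only members with the letters TGATGCAA, the composite site of C/EBP and ATF proteins in amino acid response elements, on either strand. It was present in 1 of 2 promoters of SLC1A4 and 1 of 3 of SLC1A5, or 1.1% of the members' promoters against 0.866% of all 35116 promoters. The promoters of these genes, of the copper importer SLC31A1, and of the genes with large decreases SLC17A3, SLC17A1 and SLC6A13 are given 5' to 3' on the gene's strand. Their positions are chr2:64989149-64989448 (+) for SLC1A4, chr19:46784765-46785064 (-) for SLC1A5, chr9:113221294-113221593 (+) for SLC31A1, chr6:25874194-25874493 (-) for SLC17A3, chr6:25832003-25832302 (-) for SLC17A1 and chr12:262787-263086 (-) for SLC6A13. Capitals mark TGATGCAA or its complement in the first 2, the cAMP response element TGACGTCA in SLC31A1 and the AP-1 site TGANTCA in SLC17A3.
SLC1A4: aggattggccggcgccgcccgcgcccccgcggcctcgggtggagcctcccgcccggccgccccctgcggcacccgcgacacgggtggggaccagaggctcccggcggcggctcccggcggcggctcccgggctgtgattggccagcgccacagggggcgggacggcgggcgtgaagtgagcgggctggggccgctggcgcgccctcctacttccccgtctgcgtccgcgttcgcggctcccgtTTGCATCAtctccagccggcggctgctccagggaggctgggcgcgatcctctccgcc
SLC1A5: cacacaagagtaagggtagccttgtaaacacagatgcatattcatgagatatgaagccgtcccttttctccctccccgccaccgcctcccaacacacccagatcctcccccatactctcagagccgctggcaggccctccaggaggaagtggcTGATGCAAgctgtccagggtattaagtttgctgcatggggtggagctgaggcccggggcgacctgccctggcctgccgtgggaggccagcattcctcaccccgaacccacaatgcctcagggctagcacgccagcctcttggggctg
SLC31A1: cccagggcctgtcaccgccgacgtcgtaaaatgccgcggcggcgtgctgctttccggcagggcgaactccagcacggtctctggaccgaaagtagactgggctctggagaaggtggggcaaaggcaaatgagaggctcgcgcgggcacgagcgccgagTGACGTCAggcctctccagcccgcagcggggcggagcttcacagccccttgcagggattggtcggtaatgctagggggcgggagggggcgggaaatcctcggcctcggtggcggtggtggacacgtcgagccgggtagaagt
SLC17A3: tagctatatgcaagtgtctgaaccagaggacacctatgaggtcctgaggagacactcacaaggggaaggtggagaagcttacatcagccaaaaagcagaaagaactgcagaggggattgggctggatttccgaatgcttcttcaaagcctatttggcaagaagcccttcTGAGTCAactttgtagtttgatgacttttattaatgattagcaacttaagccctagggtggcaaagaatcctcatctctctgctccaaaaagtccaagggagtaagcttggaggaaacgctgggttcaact
SLC17A1: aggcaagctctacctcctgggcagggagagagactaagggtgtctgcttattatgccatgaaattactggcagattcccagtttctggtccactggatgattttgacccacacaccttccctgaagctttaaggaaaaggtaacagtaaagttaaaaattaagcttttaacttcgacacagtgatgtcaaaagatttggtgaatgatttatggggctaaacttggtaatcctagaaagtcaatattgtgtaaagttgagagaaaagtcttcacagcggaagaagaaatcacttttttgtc
SLC6A13: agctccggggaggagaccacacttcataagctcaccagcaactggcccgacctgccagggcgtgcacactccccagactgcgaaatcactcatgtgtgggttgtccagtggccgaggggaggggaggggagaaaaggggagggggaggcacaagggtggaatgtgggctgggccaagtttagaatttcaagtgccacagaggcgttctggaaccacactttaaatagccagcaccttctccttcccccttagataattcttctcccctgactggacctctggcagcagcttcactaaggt
In SLC17A1 and SLC6A13 none of the 5 motifs searched was present in this window. TGACGTCA was found in 2.21% of the members' promoters and 1.85% of all, in 4 members of which 3 were higher at 48 h and none lower. The core of the antioxidant response element, TGACNNNGC, was found in 13.8% of the members' promoters and 13.3% of all. It was held by 25 members, of which 6 were higher, 11 lower and 8 not called. TGANTCA was found in 6.63% and 7.71%, in 11 members with 2 higher and 3 lower. The HNF1 site was found in 1.1% and 0.322%, in 1 member, which was higher. Beside these counts of called members, 22.9% of all genes tested were called higher and 28% lower at 48 h. The counts for TGACGTCA and the HNF1 site rest on few members, and a link between motif and change was not tested. Both strands were searched for every motif, and TGACNNNGC can share its first 4 letters with TGACGTCA. The members' shares were close to those of all promoters for the 3 commoner motifs, and the other 2 rest on 2 promoters each.

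Among the carriers of the SLC6 family, which import amines and osmolytes with sodium and chloride, SLC6A13, SLC6A12 and SLC6A8 fell and SLC6A6 and SLC6A15 rose at 48 h. SLC6A13 encodes GAT2, which takes up GABA and taurine at the basolateral membrane. SLC6A13 lay at 10.12, 9.91 and 10.16 in control and at 5.17, 5.79 and 5.62 in Di at 48 h, so that every Di array was below every control array. This is a decrease of 23.2-fold (log2 change -4.54 ± 0.144, adjusted p = 9.62e-10). Its level came from a probe set marked for possible cross-hybridisation, since its other probe set stayed under the floor. With no level filter that other probe set stood for the gene, and the change was -0.64 (adjusted p = 0.00968). SLC6A12, the betaine and GABA carrier BGT1 encoded beside it, lay at 5.34, 5.43 and 5.32 in control and at 3.92, 3.92 and 3.88 in Di. The Di arrays were under the floor, and the decrease was at least 2.58-fold (log2 change -1.46 ± 0.0939, adjusted p = 2.34e-07). SLC6A6, the taurine carrier TauT, lay at 9.37, 9.45 and 9.37 in control and higher, at 10.00, 10.17 and 10.51, in Di (log2 change 0.83 ± 0.118, adjusted p = 0.000128). Its 2 other probe sets also rose, by 1.49 and 1.63. SLC6A15, a carrier of branched-chain amino acids and proline, rose from 9.63, 9.52 and 9.70 to 10.52, 10.31 and 10.44, without overlap (log2 change 0.81 ± 0.0776, adjusted p = 5.96e-06). SLC6A8, the creatine carrier, fell from 9.42, 9.44 and 9.32 to 9.16, 8.97 and 8.98 (-0.35 ± 0.0898, adjusted p = 0.00642). SLC6A20, which carries proline and related imino acids, lay at 4.96, 4.79 and 4.57 in control and at 4.82, 3.77 and 4.01 in Di and was not called (-0.57 ± 0.238, adjusted p = 0.0668). Without replicate 1 of Di at 48 h its change was -0.88 and passed the threshold (adjusted p = 0.00206), and without replicate 2 it was -0.36 (adjusted p = 0.249). It was also called with the mean of its probe sets (-0.97, adjusted p = 0.000128) and with the replicate block (-0.57, adjusted p = 0.00898).

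Other amino acid carriers that fell included SLC38A11 and SLC1A1, and those that rose included the plasma membrane exchangers of the SLC1 family and several lysosomal or neutral amino acid carriers. SLC38A11, a member of the sodium-coupled neutral amino acid family with no settled substrate, lay at 6.43, 6.22 and 6.23 in control and at 3.04, 3.05 and 3.69 in Di. All 3 Di arrays were under the floor, and the decrease was at least 4.90-fold (log2 change -3.03 ± 0.162, adjusted p = 5.81e-08). SLC1A1, the glutamate and aspartate importer EAAT3, fell from 4.58, 4.29 and 4.30 to 3.70, 2.94 and 3.14, a decrease of at least 1.31-fold (adjusted p = 0.000772). In contrast SLC1A4 (ASCT1), an exchanger of alanine, serine and cysteine, rose from 9.29, 9.31 and 9.50 to 9.94, 9.88 and 9.92 (log2 change 0.54 ± 0.0851, adjusted p = 0.000258). SLC1A5 (ASCT2), which exchanges glutamine, rose by 0.53 ± 0.118 (adjusted p = 0.00312), from 9.47, 9.56 and 9.31 to 10.22, 9.88 and 9.81. Neither pair of groups overlapped. SLC38A6, a relative of the glutamine carriers, lay at 9.17, 9.17 and 8.98 in control and at 10.40, 10.46 and 10.47 in Di, a rise of 2.53-fold (adjusted p = 1.56e-07). SLC36A1 (PAT1), which exports small amino acids from lysosomes with protons, lay at 6.00, 5.66 and 5.38 in control and at 6.93, 6.57 and 6.78 in Di (2.11-fold, adjusted p = 0.000921). The arrays of both genes were separated by group. SLC38A9, the lysosomal arginine sensor, and SLC66A1, a lysosomal exporter of basic amino acids, each rose by 0.39 (adjusted p = 0.0245 and 0.0286). SLC38A1 rose by 0.34 ± 0.0809, and SLC38A2, another system A carrier, gave 0.03 ± 0.085 and was not called. For SLC38A10, called lower at -0.36, the other probe set was called higher at 1.46, so its direction is uncertain.

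Among carriers of organic anions and steroids, the urate and organic anion carriers of the SLC17 family fell. SLC17A3 (NPT4), an apical exit route for urate and anionic drugs, lay at 8.05, 8.15 and 7.98 in control and at 4.34, 4.01 and 4.02 in Di at 48 h. The decrease was 15.3-fold (log2 change -3.93 ± 0.104, adjusted p = 2.11e-10). SLC17A1 (NPT1), its neighbour on chromosome 6 with a like function, fell 4.98-fold, from 6.52, 6.40 and 6.31 to 4.25, 4.07 and 3.97 (adjusted p = 3.68e-08), and its 2 other probe sets gave -3.79 and -1.41. In both genes every Di array lay below every control array. The Di arrays of both lay near the floor of 4, where changes are understated. SLCO4C1, the basolateral uptake carrier OATP4C1 for digoxin and thyroid hormone, fell 4.24-fold, from 10.64, 10.74 and 10.44 to 8.36, 8.47 and 8.73 (adjusted p = 4.35e-07). SLCO2A1, the prostaglandin carrier, fell 2.30-fold, from 6.02, 6.02 and 6.06 to 5.26, 4.36 and 4.87 (adjusted p = 0.000214). By contrast SLCO5A1, a family member with no settled substrate, lay at 6.61, 7.19 and 6.85 in control and at 9.30, 9.67 and 9.67 in Di, a rise of 6.34-fold (log2 change 2.67 ± 0.203, adjusted p = 9.23e-07). SLC22A15, a carrier of zwitterions such as ergothioneine and carnitine, rose 2.07-fold, from 7.99, 8.01 and 7.94 to 9.07, 8.93 and 9.08 (adjusted p = 6.06e-06). Groups did not overlap for any of these 4 genes. SLC22A5 (OCTN2), the sodium-coupled carnitine importer, rose by 0.39 ± 0.105 (adjusted p = 0.00946), and SLC22A4, its relative for ergothioneine, gave 0.31 ± 0.204 and was not called.

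**Figure D2:**
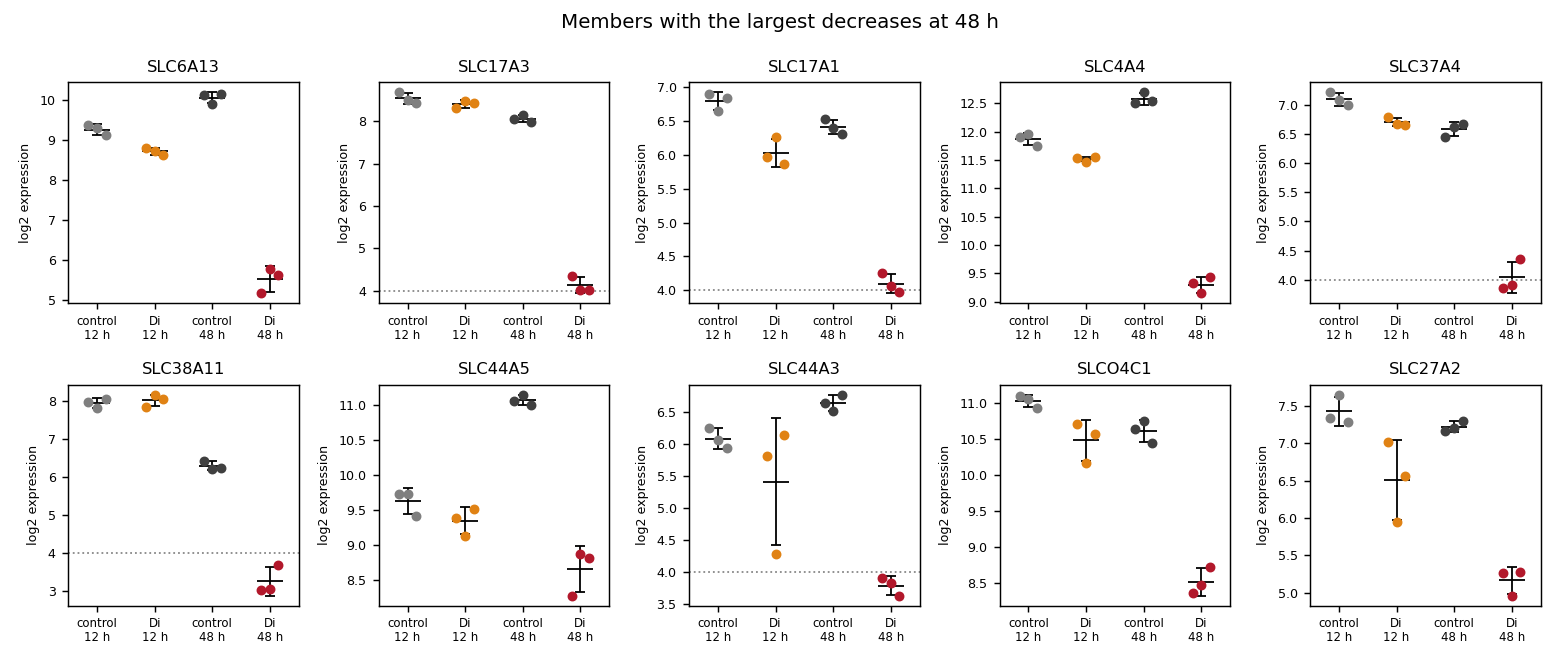
Log2 expression (vertical axis, with its own range in each panel) of the 10 called members with the largest decreases at 48 h in each of the 12 arrays, by group. Points are arrays, bars the mean and SD of 3 arrays and the dotted line, where it falls in the panel, the floor of 4; Di at 48 h lies below the other 3 groups in all 10 panels, as for SLC6A13 at 5.17 to 5.79 against 9.91 to 10.16 in control at 48 h.

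Carriers of bicarbonate, chloride and phosphate changed in both directions. SLC4A4 (NBCe1), which carries bicarbonate with sodium out of the proximal tubule cell into the blood, lay at 12.50, 12.69 and 12.53 in control and at 9.33, 9.15 and 9.43 in Di at 48 h. That is a decrease of 9.65-fold (log2 change -3.27 ± 0.0898, adjusted p = 3.02e-10), and its 4 other probe sets fell by 3.16 to 4.04 on the log2 scale. SLC4A7 (NBCn1), another sodium bicarbonate cotransporter, fell from 5.97, 6.08 and 6.02 to 4.61, 5.17 and 5.54 (1.89-fold, adjusted p = 0.00304). Both genes were lower without overlap. SLC12A2 (NKCC1), the importer of sodium, potassium and chloride, fell 1.96-fold (adjusted p = 0.000159), while the potassium chloride exporter SLC12A7 (KCC4) rose 1.53-fold (adjusted p = 0.00113). SLC12A8, a distant member of the same family, rose 2.22-fold, from 7.24, 6.98 and 7.16 to 8.25, 8.33 and 8.26 (adjusted p = 5.33e-06). SLC26A11, an anion exchanger of the sulfate family, rose 1.71-fold (adjusted p = 0.000281). SLC34A2 (NaPi-IIb), a sodium phosphate cotransporter, lay at 6.04, 5.78 and 6.03 in control and at 5.17, 3.84 and 3.80 in Di (3.20-fold lower, adjusted p = 0.000579). Replicate 1 of Di was higher than the other 2, and all 3 were below the control arrays. SLC20A1 (PiT-1), the housekeeping phosphate importer, gave a small rise of 0.16 ± 0.0589 (adjusted p = 0.0391). That call was lost without any 1 of 7 arrays, namely replicates 1 and 3 of Di at 12 h, replicates 2 and 3 of Di at 48 h or any control array at 48 h (changes of 0.14 to 0.17, adjusted p from 0.0521 to 0.115).

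Sugar, polyol, vitamin and choline carriers held some of the larger decreases. SLC37A4, which moves glucose 6-phosphate into the endoplasmic reticulum for the last step of glucose release, fell from 6.45, 6.63 and 6.68 to 3.85, 3.91 and 4.35 (5.87-fold, adjusted p = 2.97e-08). Replicates 1 and 2 of Di lay under the floor, where changes are understated. The other probe set of SLC37A4 gave -1.06. SLC60A1 (older name MFSD4A) lay at 5.31, 5.36 and 5.67 in control and at 3.43, 3.33 and 4.0 in Di, at least 2.73-fold lower. It passed the floor only through control at 48 h, so this difference was built into its selection. SLC50A1, a sugar carrier of the SWEET type, fell 1.57-fold (adjusted p = 0.000258). SLC5A3 (SMIT1), the sodium-coupled importer of the osmolyte myo-inositol, rose from 9.68, 9.58 and 9.67 to 10.68, 10.47 and 10.77 (2.00-fold, adjusted p = 6.38e-06). Of the choline carrier-like SLC44 family, SLC44A3 fell from 6.65, 6.52 and 6.78 to 3.91, 3.82 and 3.63 (at least 6.27-fold, adjusted p = 5.13e-05). SLC44A5 fell from 11.07 ± 0.0764 (SD, n = 3) to 8.65 ± 0.327 (5.35-fold, adjusted p = 2.72e-07), and its 3 other probe sets gave -2.87 to -2.21. SLC44A1, the widely expressed choline carrier, fell by 0.33 ± 0.074, and SLC44A2 was not called (0.07 ± 0.298). Groups were separated for SLC37A4, SLC5A3, SLC44A3 and SLC44A5 alike.

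Among the vitamin and haem carriers 4 were higher. The riboflavin carrier SLC52A2 rose from 7.75, 7.76 and 7.87 to 8.64, 8.61 and 8.62 (1.78-fold, adjusted p = 1.61e-06), and with probe sets of possible cross-hybridisation allowed the rise was 0.55 on the log2 scale in place of 0.83. SLC23A2, the sodium-coupled importer of ascorbate, rose 1.65-fold, from 5.34, 5.78 and 5.16 to 6.18, 6.13 and 6.13 (adjusted p = 0.018). SLC48A1, which releases haem from endolysosomes, rose 1.56-fold (adjusted p = 0.00019), and SLC49A4 (older name DIRC2), a lysosomal membrane protein, 1.64-fold (adjusted p = 7.23e-06). In the same class the reduced folate carrier SLC19A1 fell 1.41-fold with overlapping groups (adjusted p = 0.047). Among metal carriers SLC31A1 (CTR1), the high-affinity copper importer, was the only 1 of 7 called. It lay at 9.22, 9.25 and 9.16 in control and at 10.12, 10.36 and 10.09 in Di, a rise of 1.97-fold (adjusted p = 1.42e-06), and its 2 other probe sets gave 0.63 and 0.72. SLC11A2 (DMT1), the divalent iron importer, gave 0.17 ± 0.104 and was not called.

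**Figure D3:**
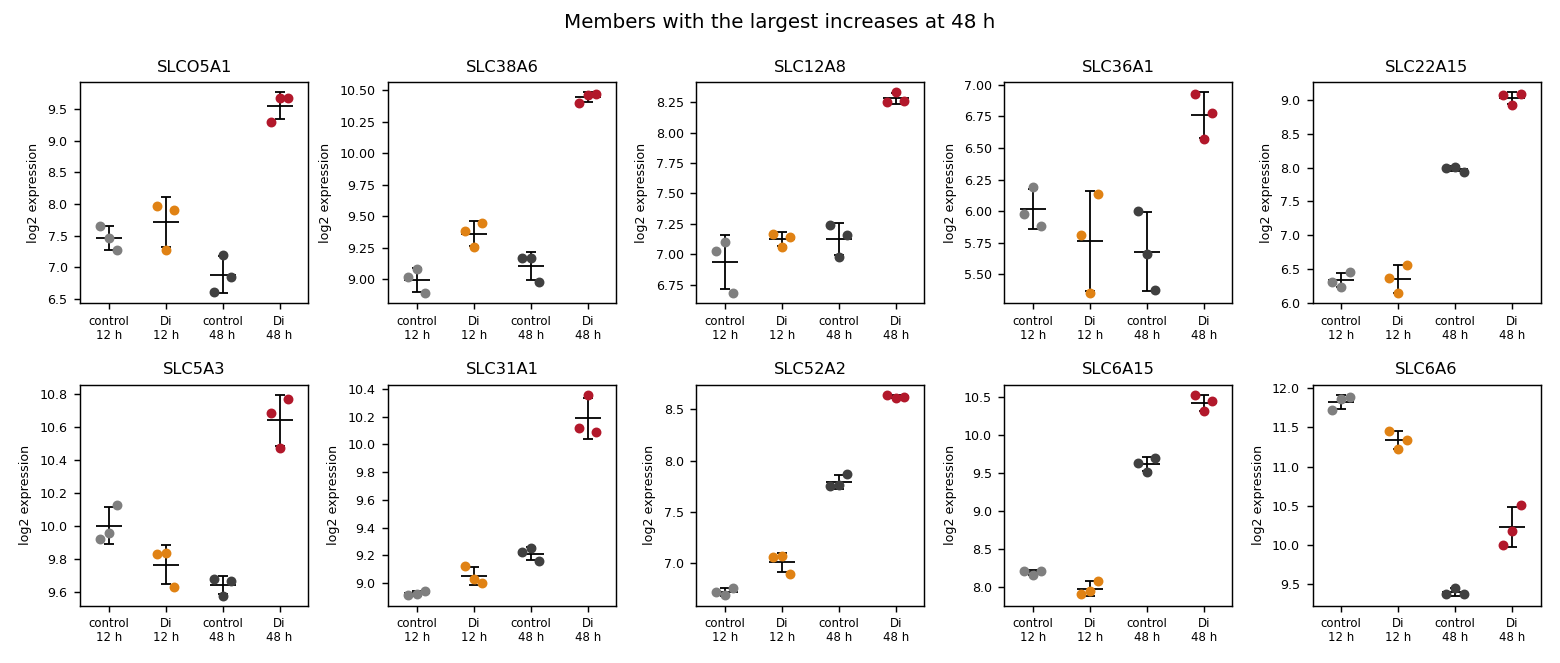
Log2 expression (vertical axis, with its own range in each panel) of the 10 called members with the largest increases at 48 h in each of the 12 arrays, by group. Points are arrays and bars the mean and SD of 3 arrays; Di at 48 h lies above control at 48 h in all 10 panels, and SLC6A6 alone stood higher at 12 h (11.22 to 11.89) than in Di at 48 h (10.00 to 10.51).

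The mitochondrial SLC25 carriers were counted by role at 48 h, beside 50.9% of all genes called, and differences between roles were not tested. Carriers of phosphate and adenine nucleotides had 4 lower and 1 higher of 7. On the log2 scale SLC25A3, the phosphate carrier, fell by 0.23 ± 0.0634 and the ADP/ATP exchangers SLC25A4 and SLC25A5 by 0.66 ± 0.0919 and 0.27 ± 0.0632 (adjusted p = 0.00947, 0.000105 and 0.00407). SLC25A23, a calcium-regulated exchanger of ATP-magnesium for phosphate, fell 2.30-fold, from 7.59, 7.44 and 7.29 to 6.10, 6.47 and 6.14 (adjusted p = 9.12e-05), while its relative SLC25A25 rose by 0.58 ± 0.191 with overlapping groups (adjusted p = 0.0245). Carriers of amino acids and carnitine had 4 lower and none higher of 8. SLC25A44, the importer of branched-chain amino acids, fell 2.89-fold, from 9.34, 9.35 and 9.35 to 7.75, 7.84 and 7.86 (adjusted p = 3.43e-09). The aspartate-glutamate exchangers SLC25A12 and SLC25A13 fell by 0.58 ± 0.126 and 0.27 ± 0.0871, and SLC25A29, a carrier of basic amino acids, by 0.77 ± 0.114. SLC25A30, the kidney protein KMCP1 of the uncoupling protein branch, fell 3.45-fold, from 9.09, 9.35 and 8.99 to 7.33, 7.23 and 7.51 (adjusted p = 2.49e-07). SLC25A1, the citrate exporter, fell 1.77-fold (adjusted p = 1.88e-05). Carriers of cofactors, nucleotides and the methyl donor had 4 higher and 1 lower of 7. Those higher were SLC25A33 for pyrimidine nucleotides (0.58 ± 0.0966), SLC25A32 for folate and FAD (0.51 ± 0.119), SLC25A51 for NAD (0.48 ± 0.166) and SLC25A26 for S-adenosylmethionine (0.35 ± 0.125). SLC25A16, linked to coenzyme A, was the one lower (-0.45 ± 0.13). For iron and glutathione, SLC25A40 fell by 0.48 ± 0.14 and the other 3 carriers were not called.

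In the remaining classes most changes were below 2-fold. SLC27A2 (FATP2), an acyl-CoA synthetase that takes up long-chain fatty acids, fell 4.18-fold, from 7.16, 7.21 and 7.30 to 5.26, 4.96 and 5.27 (adjusted p = 1.21e-05), and the other 2 SLC27 members were not called. SLC29A1 (ENT1), the equilibrative nucleoside carrier, fell 2.57-fold, from 5.74, 5.80 and 5.92 to 4.61, 4.37 and 4.40 (adjusted p = 8.55e-07). With the mean of its 2 probe sets the change was -0.85 in place of -1.36. SLC16A7 (MCT2), a high-affinity pyruvate and lactate carrier, fell 2.42-fold, from 9.51, 9.70 and 9.34 to 7.95, 8.40 and 8.37 (adjusted p = 3.11e-05). All 4 of its other probe sets were lower, at -1.31 to -0.85. Of the nucleotide sugar carriers, SLC35A1 for CMP-sialic acid fell 1.72-fold (adjusted p = 8.75e-06), as did the lysosomal sialic acid exporter SLC17A5, 1.53-fold (adjusted p = 6.05e-05). SLC35A2 for UDP-galactose, SLC35A3 for UDP-N-acetylglucosamine and SLC33A1 for acetyl-CoA rose by 0.32 to 0.35 on the log2 scale (adjusted p = 0.00745, 0.0189 and 0.000463). SLC67A1 (older name SLC22A18), an organic cation carrier-like protein, rose 1.62-fold (adjusted p = 1.8e-05). SLC9A3-OT1, a noncoding RNA named for its overlap with a sodium-proton exchanger gene, fell 2.31-fold (adjusted p = 0.000365).

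Cell type markers moved at 48 h as well. The summed log2 value of the 3 fibroblast markers above the floor was 23.56 to 24.02 in control and 21.16 to 21.98 in Di, and that of the 7 epithelial markers was 72.50 to 73.33 and 70.05 to 70.94. Both sums were lower in Di without overlap. The epithelial list was split: the group means of KRT19 (11.42 and 10.23), EPCAM (13.05 and 12.4) and CDH1 (8.07 and 6.74) were lower in Di, and those of KRT8, KRT18, KRT7 and TJP1 were higher (TJP1 by the most, 11.01 and 11.39). The part of these shifts in the changes of the carriers was not tested. The 3' probe set of actin exceeded the 5' one, a gap that reflects RNA integrity, by 1.33 ± 0.13 (SD, n = 3) in control and 1.41 ± 0.08 in Di.

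Changes at 12 h were smaller. Of the 148 members 4 were higher and 14 lower (12.2%), where 13.7% of all genes were called (3.9% higher, 9.78% lower), so the members stood close to the array as a whole. No member changed by 2-fold, where over all 10626 genes 16 called genes rose and 21 fell by as much. The median was -0.053 over the members and -0.061 over all genes. Values did not overlap for 12 members that were higher and 34 that were lower, beside 34.8% of all genes. The total of 18 was 8 without replicate 2 of control at 12 h (2 higher, 6 lower), and without replicate 1 of Di at 48 h 7 were higher in place of 4. With quantile normalisation 7 were higher and 13 lower, which moved the higher share of calls from 22.2% to 35%. The actin gap was 1.71 ± 0.18 (SD, n = 3) in control and 1.22 ± 0.24 in Di at 12 h, without overlap. The epithelial marker sum was also lower in Di without overlap, at 71.12 to 71.79 in control and 69.75 to 71.06 in Di, and the fibroblast sum overlapped (25.72 to 26.47 and 24.91 to 26.42). Their part in these changes was not tested.

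Of the 14 members lower at 12 h, 3 (SLC20A1, SLC6A6 and SLC4A2) were higher at 48 h, 1 (SLC75A1) was not called there and the other 10 were lower. SLC27A2 lay at 7.34, 7.65 and 7.29 in control and at 7.01, 5.94 and 6.56 in Di, with replicate 2 of Di the lowest (log2 change -0.92 ± 0.217, adjusted p = 0.0188). SLC25A23 fell from 7.44, 7.79 and 7.68 to 7.06, 6.49 and 7.02 (-0.78 ± 0.164, adjusted p = 0.0121). Without replicate 2 of control at 12 h these changes were -0.81 and -0.70 and were not called (adjusted p = 0.0764 and 0.0506). SLC17A1 fell from 6.89, 6.65 and 6.84 to 5.96, 6.26 and 5.86 (-0.77 ± 0.117, adjusted p = 0.00316). SLC25A44 fell from 9.77, 9.78 and 9.78 to 9.25, 9.21 and 9.28 (-0.53 ± 0.057, adjusted p = 0.000706). In both genes the groups were well separated, and the call held under every alternative. SLC20A1 fell from 11.01, 11.10 and 11.05 to 10.38, 10.34 and 10.39 (-0.68 ± 0.0589, adjusted p = 0.000306), and with the mean of its probe sets the change was -0.38 and not called (adjusted p = 0.196). In the SLC6 family 4 of 7 members were lower at 12 h and none higher, where 9.78% of all genes were called lower. Differences between families were not tested. SLC6A8 fell from 9.49, 9.60 and 9.80 to 9.11, 9.20 and 9.08 (-0.50 ± 0.0898, adjusted p = 0.0066). SLC6A12 fell by 0.50 ± 0.0939 (adjusted p = 0.00789), from 5.19, 5.37 and 5.59 to 4.84, 4.98 and 4.84. The SLC6A12 call was lost when only the 12 h arrays were fitted (-0.50, adjusted p = 0.0582). SLC6A13 fell from 9.37, 9.31 and 9.12 to 8.81, 8.73 and 8.64 (-0.54 ± 0.144, adjusted p = 0.0316), and SLC6A6 from 11.72, 11.87 and 11.89 to 11.46, 11.22 and 11.34 (-0.49 ± 0.118, adjusted p = 0.0212). The Di arrays were below the control arrays in all 4. The SLC6A13 call was lost without replicate 2 or 3 of Di at 12 h or replicate 1 or 2 of control at 12 h (changes of -0.54 to -0.49), and the SLC6A6 call without replicate 2 or 3 of either 12 h group (-0.49 to -0.43). With the mean of its probe sets SLC6A6 gave -0.26 (adjusted p = 0.335).

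SLCO4C1, which fell further by 48 h, lay at 11.09, 11.05 and 10.92 in control and at 10.70, 10.16 and 10.57 in Di at 12 h (-0.54 ± 0.145, adjusted p = 0.0321). This call was lost without replicate 2 or 3 of Di or any control array at 12 h (-0.59 to -0.38). SLC4A4 lay at 11.91, 11.95 and 11.75 in control and at 11.53, 11.47 and 11.55 in Di (-0.36 ± 0.0898, adjusted p = 0.0253). Its call was lost without any Di array or without replicate 1 or 2 of control at 12 h (-0.37 to -0.31), and the mean of its probe sets gave -0.11. The remaining 3 decreases were in the anion exchanger SLC4A2 (-0.44), SLC25A29 (-0.38) and SLC75A1 (older name MFSD10, -0.35).

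Of the 4 increases at 12 h, the pseudogene SLC71A3P (older name MFSD14C) rose from 6.63, 6.43 and 6.44 to 7.19, 7.43 and 7.14 (0.75 ± 0.134, adjusted p = 0.00624). As a pseudogene it may share probes with SLC71A1 and SLC71A2, which were not called at 12 h (-0.13 and 0.01). SLC38A6 rose from 9.02, 9.08 and 8.89 to 9.38, 9.26 and 9.45 (0.36 ± 0.0817, adjusted p = 0.0155), and its call was lost without replicate 3 of Di or of control at 12 h (0.32 and 0.31). SLC52A2 rose from 6.72, 6.69 and 6.76 to 7.06, 7.07 and 6.90 (0.29 ± 0.0674, adjusted p = 0.0184), lost without replicate 1 of Di or replicate 2 of control (0.26 and 0.27), and at 0.00 with probe sets of possible cross-hybridisation allowed. SLC29A1 rose from 6.42, 6.24 and 6.60 to 6.85, 6.78 and 6.68 (0.35 ± 0.103, adjusted p = 0.0458). That call was lost without any of 10 arrays, namely the 3 of Di at 12 h, replicates 2 and 3 of Di at 48 h, replicates 1 and 2 of control at 12 h and the 3 of control at 48 h (0.26 to 0.40), and the mean of its probe sets gave 0.08. In all 4 genes the Di arrays stood above the control arrays.

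The difference between the change at 48 h and the change at 12 h was tested directly. It was called for 60 members, 30 in each direction (40.5%), where 38.3% of all genes were called (19.8% and 18.5%). Of the 18 members called at 12 h, 17 were among the 86 called at 48 h, 13 of them in the same direction and 4 in opposite directions, and 61 members were called at neither time. The largest negative differences were those of SLC6A13 (-4.00 ± 0.203, adjusted p = 1.39e-07), SLC17A3 (-3.80 ± 0.146, adjusted p = 1.53e-08) and SLC38A11 (-3.10 ± 0.229, adjusted p = 2.39e-06). SLC4A4 followed at -2.92 ± 0.127 and SLC34A2 at -2.24 ± 0.415 (adjusted p = 3.91e-08 and 0.00147). These genes fell at 48 h and changed by no more than 0.56 in size at 12 h. With no level filter another probe set, under the floor, stood for SLC6A13, and its difference was -0.73 (adjusted p = 0.0376). SLC34A2 lay at 7.01, 6.74 and 6.53 in control and at 7.29, 7.29 and 7.38 in Di at 12 h, which did not pass the test there (0.56 ± 0.293). The largest positive differences were in SLCO5A1 (2.41 ± 0.287, adjusted p = 7.34e-05), SLC36A1 (1.33 ± 0.284, adjusted p = 0.00362), SLC6A6 (1.31 ± 0.166, adjusted p = 0.000117), SLC5A3 (1.23 ± 0.137, adjusted p = 4.42e-05) and SLC22A15 (1.03 ± 0.143, adjusted p = 0.000218).

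The 4 members with opposite calls were SLC20A1, SLC6A6, SLC4A2 and SLC29A1. SLC4A2 (AE2), a basolateral chloride-bicarbonate exchanger, fell at 12 h from 7.36, 7.37 and 7.51 to 7.03, 7.00 and 6.89 and was higher in Di at 48 h, at 7.75, 7.69 and 7.80 against 7.25, 7.47 and 7.20. The changes of -0.44 ± 0.0854 and 0.44 ± 0.0854 differed by 0.89 ± 0.121 (adjusted p = 0.000192). SLC29A1 gave 0.35 and -1.36, a difference of -1.71 ± 0.145 (adjusted p = 6.22e-06). SLC20A1 gave -0.68 and 0.16, a difference of 0.84 ± 0.0833 (adjusted p = 1.92e-05). SLC16A7 lay at 8.33, 8.46 and 8.63 in control and at 9.09, 8.69 and 9.05 in Di at 12 h, above control but not called (0.47 ± 0.151, adjusted p = 0.0615), and its fall at 48 h differed from this by -1.75 ± 0.214 (adjusted p = 9.06e-05). Only 2 of its 4 other probe sets had the same sign at 12 h (-0.59 to 0.63), so its direction at that time is uncertain.

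**Figure D4:**
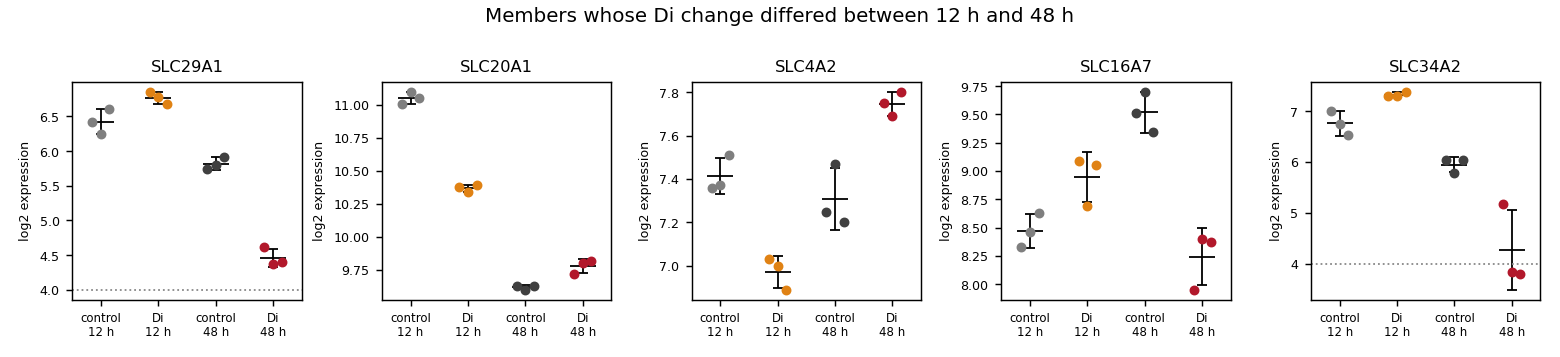
Log2 expression (vertical axis, with its own range in each panel) of 5 members whose Di change differed between 12 h and 48 h, in each of the 12 arrays, by group, with points for arrays, bars for mean and SD of 3 arrays and the dotted line for the floor of 4. SLC29A1, SLC16A7 and SLC34A2 stand above control at 12 h and below it at 48 h, of which SLC29A1 alone was called at 12 h, while SLC20A1 and SLC4A2 stand below control at 12 h and above it at 48 h. The other probe sets of SLC16A7 differed in sign at 12 h.

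Carriers also differed between the control groups. Between control at 12 h and control at 48 h, 39 members were higher and 50 lower at the later time (60.1%), where 52.9% of all genes were called (21.9% and 31%). Of these called members, 14 rose and 7 fell by at least 2-fold. Over all 10626 genes, 440 called genes rose and 719 fell by as much. Values did not overlap for 48 members that were higher and 58 that were lower, and 65.1% of all genes had no overlap. This contrast shares control arrays with each Di contrast, so the values stand side by side only. Between the same groups the fibroblast marker sum was lower at 48 h (range 25.72 to 26.47 at 12 h, 23.56 to 24.02 at 48 h) and the epithelial sum higher (71.12 to 71.79, then 72.50 to 73.33). The actin gap was smaller at 48 h (1.55 to 1.90, then 1.19 to 1.43). None of the 3 overlapped between the times, and their part in these changes was not tested. SLC6A6 lay at 11.72, 11.87 and 11.89 at 12 h and at 9.37, 9.45 and 9.37 at 48 h, a fall of 5.38-fold (adjusted p = 3.88e-08). Di at 48 h was above its control and below both 12 h groups for this gene. SLC66A3, a PQ-loop protein with no settled substrate, fell 3.37-fold (adjusted p = 1.02e-06) and SLC38A11 3.15-fold (adjusted p = 8.06e-06). SLC25A15, the mitochondrial ornithine carrier of the urea cycle, fell 2.84-fold (adjusted p = 7.34e-07), and SLCO2A1 2.72-fold (adjusted p = 5.75e-05). All 5 SLCO members were called lower in the later control, by 0.41 to 1.44 on the log2 scale, where 31% of all genes were. Differences between families were not tested. On the higher side SLC33A1 lay at 8.81, 8.79 and 8.81 at 12 h and at 10.43, 10.38 and 10.45 at 48 h (3.06-fold, adjusted p = 6.56e-09). SLC10A7, of the bile acid carrier family, rose 3.26-fold (adjusted p = 4.4e-06) and SLC22A15 3.13-fold (adjusted p = 2.18e-07). SLC60A1 lay under the floor in all 12 h control arrays (3.84, 3.92 and 3.92) and at 5.31, 5.36 and 5.67 at 48 h, a difference built into its selection through the latter group. SLC6A9 (GlyT1), a glycine carrier that passed the floor only through Di at 48 h, went from 2.21, 2.17 and 2.18 to 4.04, 3.88 and 4.03, with both group means under the floor and so no fold given (adjusted p = 1.01e-06). In Di at 48 h it lay at 4.13, 4.79 and 4.31, a group that its selection required to be high. SLC1A4 and SLC6A15 rose in the later control, by 1.41 and 1.42, and were higher again in Di. A further probe set of SLC6A15 was called lower in the later control, so its direction between the control groups is uncertain.

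Of the 37 carriers listed for the proximal tubule, 33 are named on the array, and only 9 reached the floor. The phosphate carrier SLC34A1 (highest value 3.87), the glucose carrier SLC5A2 (2.88), the organic anion carriers SLC22A6 and SLC22A8 (2.44 and 2.92), the sodium-proton exchanger SLC9A3 (2.31) and the neutral amino acid carrier SLC6A19 (3.04) were among the 24 that did not. At 48 h SLC4A4, SLCO4C1, SLC29A1 and SLC1A1 were lower and SLC22A5 and SLC20A1 higher, and SLC6A20, SLC22A4 and SLC20A2 were not called. SLC20A2 (PiT-2) lay between 4.54 and 4.67 in the 48 h arrays. SLC1A1 lay at 5.00, 4.77 and 4.55 in control and at 4.29, 3.94 and 4.54 in Di at 12 h and was not called there (adjusted p = 0.117).

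Proteins that drive, anchor or accompany carriers were counted as well. Of 32 such partner genes 28 were measured, of which 2 were higher and 13 lower at 48 h (53.6%, where 50.9% of all genes were called, 22.9% higher and 28% lower), with a median change of -0.206 beside -0.019 over all genes. The difference of these shares was not tested. At 12 h none was higher, and 2 (7.14%, against 13.7% of all genes), the scaffold PDZK1 and the cystine exporter CTNS, were lower (-0.27 and -0.24). SGK1, a kinase that raises the surface abundance of many carriers, lay at 11.91, 11.95 and 11.92 in control and at 8.52, 8.46 and 8.55 in Di at 48 h (10.7-fold lower, adjusted p = 1.53e-11). PDZK1, which binds NPT1 and several organic anion carriers at the brush border, fell 4.01-fold (adjusted p = 1.88e-09), from 10.40, 10.51 and 10.41 to 8.50, 8.42 and 8.39. NHERF1, another brush border scaffold, fell 2.18-fold (adjusted p = 1.71e-06). For the sodium pump, FXYD2 and the beta subunit ATP1B1 fell 2.90-fold and 1.90-fold (adjusted p = 4.6e-09 and 3.27e-05), and ATP1B3 by 0.23 on the log2 scale with overlapping groups. EMB and BSG, chaperones of the monocarboxylate carriers, fell 3.39-fold and 1.39-fold (adjusted p = 8.87e-06 and 0.00784). In mitochondria MPC1 and MPC2, the pyruvate carrier, fell 1.56-fold and 2.15-fold (adjusted p = 7.76e-05 and 8.76e-07), SFXN2 2.57-fold (adjusted p = 1.2e-07) and the outer membrane protein MTCH1 1.55-fold (adjusted p = 8.59e-06). STK39, a kinase that acts on cation-chloride cotransporters, fell by 0.38 (adjusted p = 0.046). The 2 that rose were the outer membrane channel VDAC2 (0.43 ± 0.0699) and the phosphate exporter XPR1 (0.41 ± 0.0733).

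**Figure D5:**
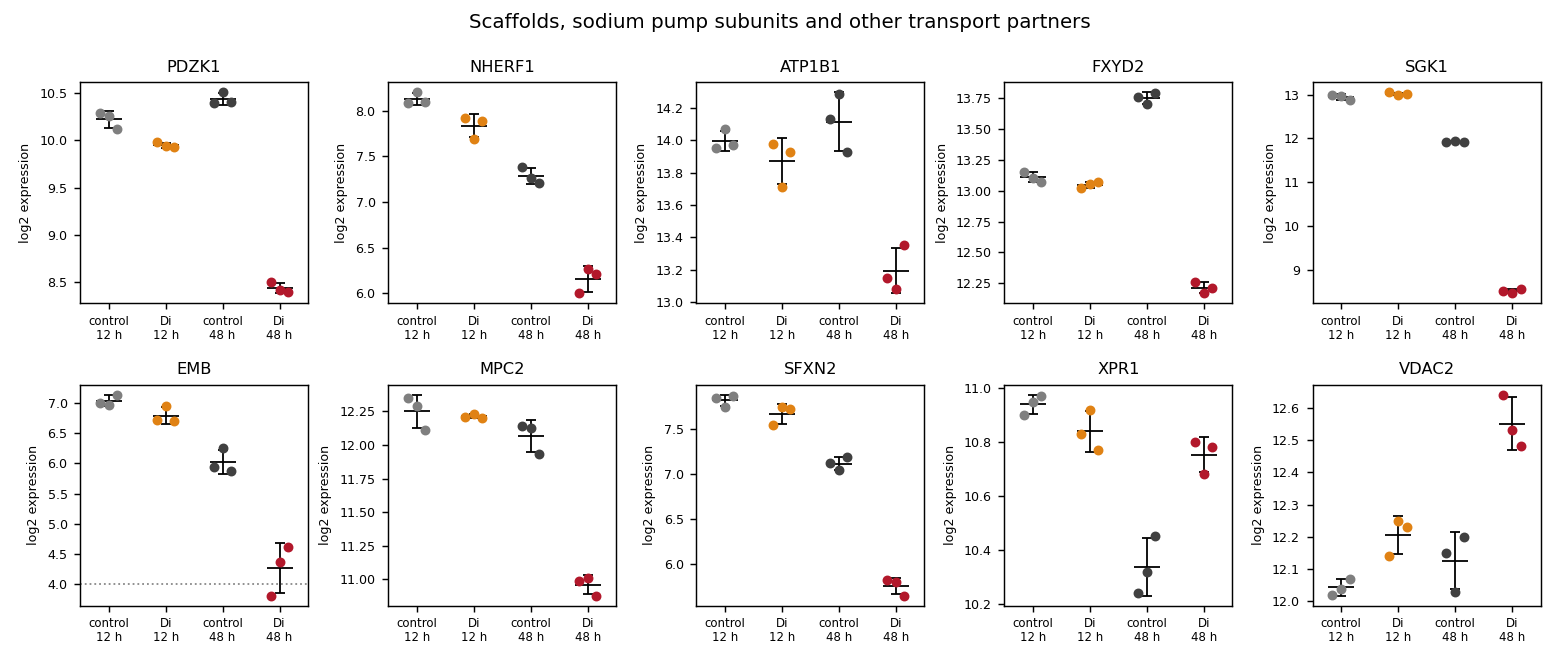
Log2 expression (vertical axis, with its own range in each panel) of 10 partner genes of carriers in each of the 12 arrays, by group, with points for arrays, bars for mean and SD of 3 arrays and the dotted line for the floor of 4. Di at 48 h lies below the other groups for the first 8 genes, as for SGK1 at 8.46 to 8.55 against 11.91 to 11.95 in control at 48 h, and above control at 48 h for XPR1 and VDAC2.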

How the data were processed

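Expression was measured on 12 arrays, 3 per group. The authors deposited log2 expression values made with GCRMA (version not given), per the submitters' processing notes, for 54675 probe sets; no further normalisation was applied. GCRMA shrinks dim probe sets towards a common low value, so changes of dim genes are understated, and the number of arrays limits the precision.

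After 62 control probe sets were left out, 41097 probe sets had 1 gene symbol in the platform annotation, 1801 several and 11777 none, and 41043 of the first matched a current symbol. Probe sets above a log2 value of 4 in at least 3 arrays (21715, of which 18957 had 1 gene) were kept, and each of 10626 genes was represented by its kept probe set of highest mean, with suffix _x_at used only where no other was kept (3 members). limma 3.58.1 in R 4.3.3 fitted 1 mean per group (lmFit, eBayes, two-sided) and was tested on simulated data. Where a group mean lay under the floor, the fold is the bright mean against the floor and is given as at least that value. Figures used matplotlib 3.10.9 in Python 3.11.15.

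Members and lists were chosen with earlier results of these data known. Named were the 10 called members with the largest change each way without overlap at each time (5 for the other contrasts), the called member with the smallest p in each class at 48 h, and the proximal tubule list; other members were chosen after their values were seen. Substrate classes follow family knowledge. Alternatives were a floor of 6 or none, moderation with a trend and robust, quantile normalisation, median centring, mean of probe sets, _x_at allowed, a replicate block, arrays of 1 time only and leaving out each array.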

Additional observations from a re-analysis of the deposited data

Results flagged for a closer look

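The change with Di at 48 h differed from that at 12 h for 60 members by limma's test of the difference (Benjamini-Hochberg adjusted over 10626 genes). Given here are the 5 largest differences each way and the 4 members with opposite calls, 13 genes in all as SLC6A6 is in both sets. The difference, 48 h minus 12 h on the log2 scale, was -4.00 for the GABA and taurine carrier SLC6A13, -3.80 for the urate carrier SLC17A3, -3.10 for SLC38A11, -2.92 for the bicarbonate carrier SLC4A4, -2.24 for the phosphate carrier SLC34A2 and -1.71 for the nucleoside carrier SLC29A1. It was 2.41 for SLCO5A1, 1.33 for the lysosomal amino acid carrier SLC36A1, 1.31 for the taurine carrier SLC6A6, 1.23 for the myo-inositol carrier SLC5A3, 1.03 for SLC22A15, 0.89 for the anion exchanger SLC4A2 and 0.84 for the phosphate carrier SLC20A1. For SLC6A13 it was -0.73 with no level filter, where another probe set, under the floor, stood for the gene. The opposite calls of SLC20A1, SLC6A6 and SLC29A1 are fragile. Leaving out any 1 of several arrays lost the call of SLC20A1 at 48 h and those of SLC6A6 and SLC29A1 at 12 h. The differences of SLC20A1, SLC29A1 and SLC4A2 were not among the named results checked under the alternatives.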

How the results depend on the processing

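The counts of members called at 48 h (86), between the control groups (89) and for the difference of changes (60) stayed within 1.5 times under every alternative, at 75 to 90, 73 to 92 and 53 to 67. At 12 h the 18 calls became 9 (1 higher, 8 lower) when only the 12 h arrays were fitted, which leaves fewer arrays to estimate the spread, and with a floor of 6 or quantile normalisation 7 were higher in place of 4. Over all alternatives the calls at 12 h ran from 8 to 26, with 1 to 7 higher and 6 to 19 lower. Leaving out 1 array at a time gave 8 to 23 calls at 12 h, 2 to 7 higher and 6 to 16 lower. Adding the replicate number as a block left 13 members called at 12 h and 83 at 48 h. Correlations of the deviations of arrays with the same number ran from -0.394 to 0.167. They were not set beside those of arrays with different numbers, so they cannot decide whether the numbers pair the arrays. Of the named results, 10 of 10 for the difference of changes and 10 of 10 for the control groups kept direction and call. So did 29 of 32 at 48 h (not SLC20A1, SLC20A2 and SLC6A20) and 6 of 20 at 12 h. This covers only the alternatives in which a gene was measured. Dim genes such as SLC60A1, SLC6A9 and SLC1A1 were absent with a floor of 6. The control difference of SLC60A1 was built into its selection, so its call adds no support. Uncalled values near 0 changed sign: SLC20A2 with the mean of probe sets (-0.09 at 12 h, -0.14 at 48 h) and, leaving out 1 array, SLC20A2 (-0.01 to 0.06 at 12 h, 0.00 to 0.06 at 48 h, the lowest just under 0 before rounding), SLC22A4 at 12 h (-0.24 to 0.16) and SLC6A20 at 12 h (-0.25 to 0.01). SLC6A13 at 12 h reversed to 0.09 with no filter, where another probe set, under the floor, stood for it. SLC20A1 at 48 h was also lost with quantile normalisation, centring, mean of probe sets, block and 48 h arrays alone; these causes were not tested. GCRMA values give no depth, and changes of probe sets near the floor are bounds.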

Other observations

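The 39 measured genes of the families that were not described here (SLC2, SLC3, SLC7, SLC30, SLC39 and SLC40) had 13 higher and 13 lower in Di at 48 h (66.7%, where 50.9% of all genes were called) and 4 higher and 2 lower at 12 h (15.4%, where 13.7% of all genes were). The differences of these shares were not tested.

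Where a called member had further probe sets, these mostly had the same sign. At 48 h 58 of 68 further probe sets of 40 called members did (85.3%), and at 12 h 14 of 18 of 12 (77.8%). Opposite calls of a further probe set were found for SLC38A10 at 48 h and, between the control groups, for the choline carrier SLC44A1 and the amino acid carrier SLC6A15.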
